A study of Drosophila melanogaster with 6 samples.

Results

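Genes of autophagy and of transport to the lysosome were examined in whole *Drosophila* larvae with reduced *Dctn1*. They were chosen by name. All genes of the deposited table whose symbol is *Atg* or *Vps* followed by a digit were taken, together with *ref(2)P*, *Lamp1*, *Mitf*, *cathD*, *Cp1*, *car*, *dor*, *lt* and *Uvrag*, which gave 55 of 13858 genes. RNA was sequenced from 3 libraries of knockdown larvae, in which the ubiquitous *Act5C*-GAL4 driver activated one *Dctn1* RNAi transgene (UAS-Dctn1-RNAI, VDRC ID 3785), and from 3 libraries of larvae that carried the driver alone. The stock given as wild type was *w1118*, and all larvae were female, of the third instar (L3b), and were fed on grape agar with yeast. The age was 96 h after hatching according to the sample labels, whereas the study's methods count the same number of hours after egg laying. Each library was one pool of 12 to 15 larvae, and the labels number the knockdown libraries 1, 2 and 3 and the control libraries 2, 3 and 4.

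In macroautophagy, the Atg1 kinase complex and the Vps34 lipid kinase complexes start a double membrane, which grows around its cargo while the ubiquitin-like proteins Atg8 and Atg12 are attached to lipid and to Atg5. The closed autophagosome then fuses with late endosomes and lysosomes, for which tethering complexes such as HOPS are needed, and its contents are digested by lysosomal hydrolases. Dynactin, of which *Dctn1* encodes the largest subunit, couples the dynein motor to such cargo for transport along microtubules. In the larval fat body, autophagy is known to be induced by starvation and, at the end of the third instar, by the steroid hormone ecdysone.

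The values are FPKM, in which the fragments assigned to a gene are divided by its transcript length and by the mapped reads of the library, so levels of different genes are compared per length of transcript. The FPKM values carry no read totals and the depth of each library is unknown. Their sum relative to the mean of the 6 libraries was 94.2% to 98.02% in knockdown and 101.52% to 107.07% in control libraries. *Dctn1*, listed as DCTN1-p150, had 7.33, 7.96 and 6.85 FPKM in knockdown libraries 1, 2 and 3, against 15.3, 15.2 and 12.5 FPKM in control libraries 2, 3 and 4. The knockdown libraries thus held 51.5% of the control mean, with no overlap between the groups (exact permutation test, two-sided, p = 0.1, which 3 libraries against 3 cannot go below). On the log2 scale the difference was -0.94, with a standard error of 0.13 and an adjusted p of 0.00737 from limma. All fold changes are those of knockdown over control on the log2(FPKM + 0.1) scale, which understates changes at low levels. Adjusted p-values come from limma with Benjamini-Hochberg adjustment over the 9978 genes with a mean of at least 0.5 FPKM, and a gene was called at an adjusted p under 0.05. In whole larvae, fewer cells of a type and less RNA per cell cannot be told apart.

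Of the 55 autophagy and lysosome genes, 54 passed the filter on low values, and 1 of them, *Atg12*, was called, in the direction of higher levels in knockdown larvae. That is 1.85% of those tested, whereas 6.71% of all genes tested were called in either direction and 5.06% as higher. None was called as lower, against 1.65% of all genes, and none had both a call and an absolute log2 fold change above 1, against 2.91%. At an unadjusted p under 0.05, 14 were higher (25.9%, against 20.9% of all genes) and 0 were lower (against 4.35%). In 18 of the 54 genes every knockdown library lay above every control library, or 33.3% against a background of 28.8%, and in 0 did every knockdown library lie below (background 4.66%).

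In the GO terms of the table, 34 of the 55 carry a term of autophagy and 13 a term of the lysosome. Most of these genes leaned towards higher FPKM in the knockdown, and so did most genes of the larva. The log2 fold change was above 0 in 47 of the 54 (87.0%) and in 74.2% of all genes tested. Their median log2 fold change was 0.22 (interquartile range 0.09 to 0.30), against 0.16 for all genes tested (-0.01 to 0.33). The lean depends on how the libraries are scaled. After scaling by median-of-ratios factors the median was 0.04 for the autophagy and lysosome genes and -0.01 for all genes, with 34 of the 54 above 0 and 20 below. Under that scaling 163 genes of the table were called as higher and 161 as lower, compared with 505 and 165 in the FPKM values as deposited. When each library was rescaled to the same sum (TPM), an alternative added after the data had been seen, the 2 medians were 0.34 and 0.28. Since each of these scalings applies 1 factor per library, the members and all genes shift nearly alike, as the plot of the distributions under 3 scalings shows. The members' median exceeded that of all genes by 0.06 in the values as deposited, by 0.02 without knockdown library 1 or without control library 4, and by 0.09 without knockdown library 3. *Atg12* was called in the values as deposited, under both other scalings and without knockdown library 3. It was not called without knockdown library 1 or without control library 4. In the TPM values 12 further members were called, among 19.0% of all genes.

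**Figure D1:**
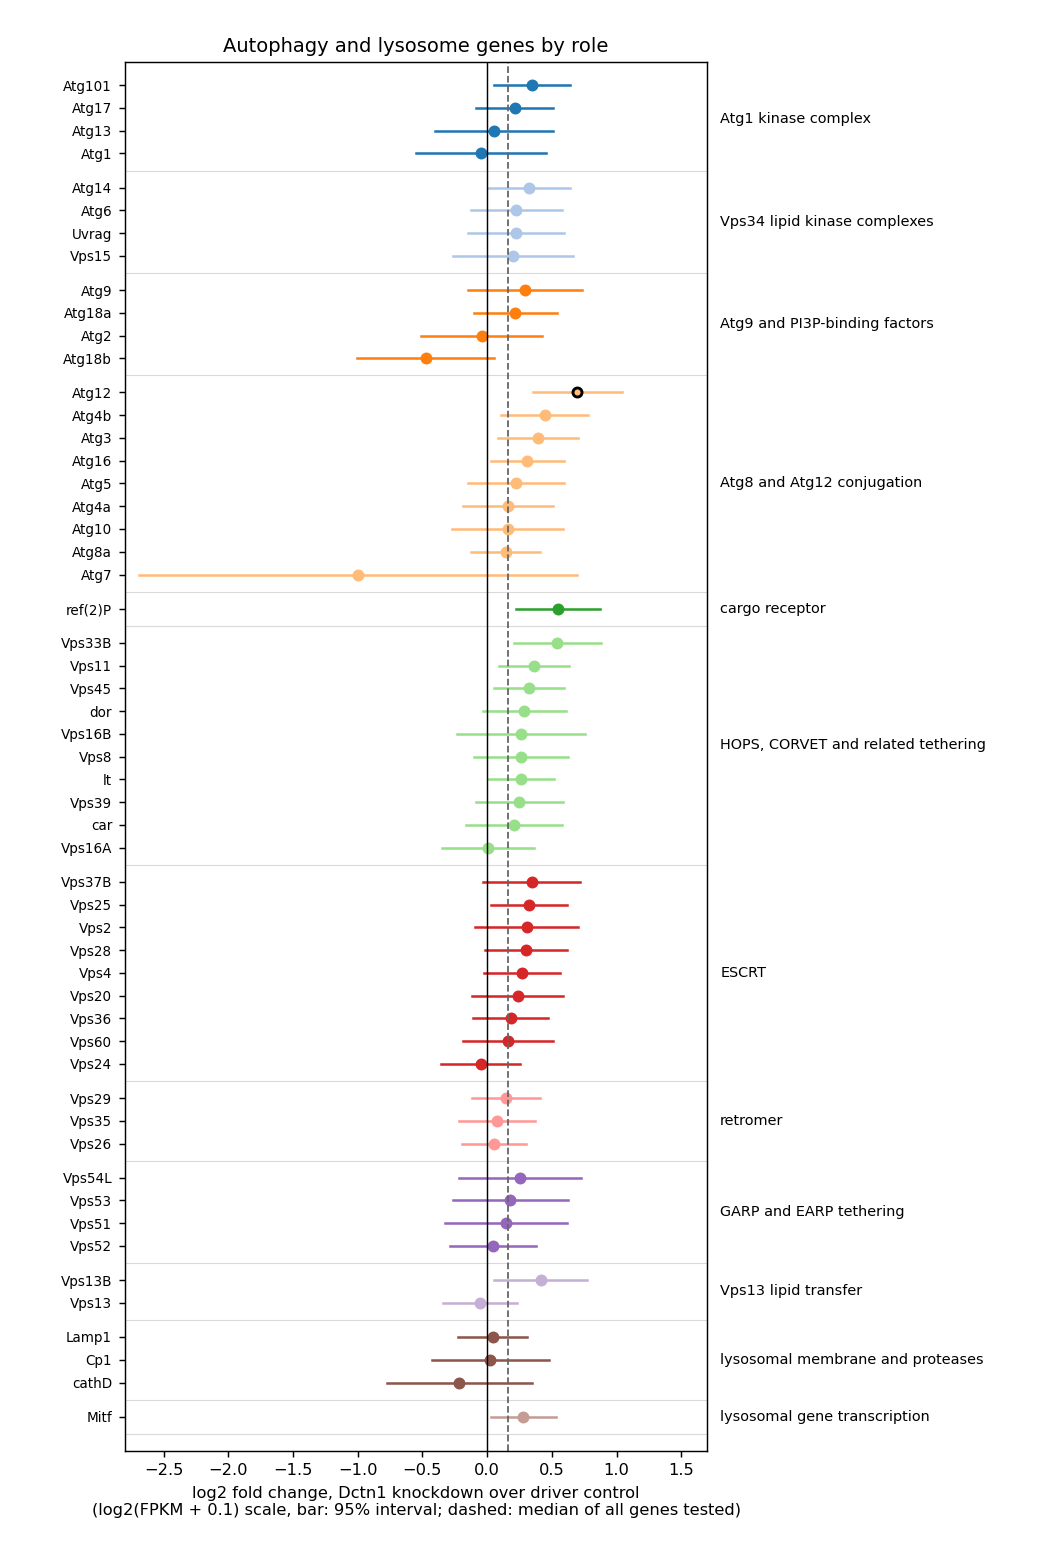
Log2 fold change of each of the 54 tested genes (x axis, knockdown over control, log2(FPKM + 0.1) scale), grouped by role on the y axis. Points are estimates, bars are 95% intervals, the dashed line is the median of all genes tested (0.16), and the ring marks *Atg12*, the only called member, while the interval of *Atg7* reaches from -2.69 to 0.70.

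**Figure D2:**
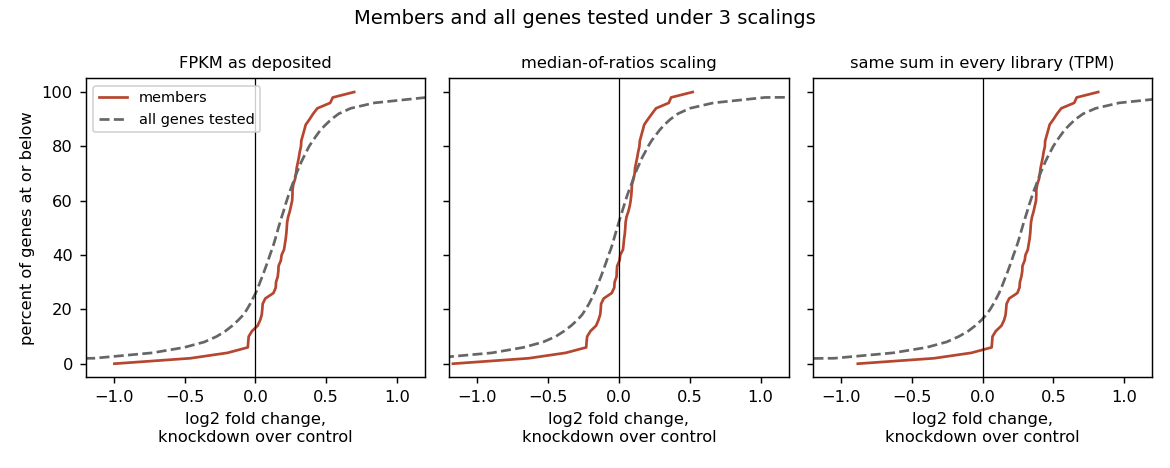
Percent of genes (y axis) at or below each log2 fold change (x axis, knockdown over control) for the 54 tested members (solid) and all genes tested (dashed) in the FPKM as deposited, after median-of-ratios scaling and after rescaling to the same sum. The 2 curves move together from panel to panel, with medians of 0.22 and 0.16, 0.04 and -0.01, and 0.34 and 0.28.

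The conjugation genes held both the highest and the lowest fold change among the tested members. *Atg12* encodes the ubiquitin-like protein that is joined to Atg5 and, with Atg16, forms the ligase for Atg8 lipidation. In BDGP6.54, the build of the annotation used here, it is found on 3L between 12136967 and 12137559. It had 14.0, 12.5 and 10.7 FPKM in knockdown libraries 1, 2 and 3, against 7.74, 8.44 and 6.64 FPKM in control libraries 2, 3 and 4. The lowest knockdown library stood above the highest control library, and the means were 12.4 ± 1.65 and 7.61 ± 0.907 FPKM (SD, n = 3 each), or 163% of the control. The log2 fold change was 0.70, with a standard error of 0.15, a 95% interval of 0.35 to 1.04 and an adjusted p of 0.0348 from limma. With each library left out in turn it stayed between 0.60 and 0.80. The call was lost without knockdown library 1 (adjusted p = 0.124), knockdown library 2 (0.115), control library 2 (0.0957) or control library 4 (0.0771), and over the processing alternatives other than those added later the adjusted p from limma ranged between 0.00678 and 0.124. Exons of 22 of the 55 members overlap those of another gene in the annotation. *Atg12* overlaps *ND-SGDH*, a gene of mitochondrial complex I on the opposite strand, and the reads of both genes there cannot be told apart if strand was not recorded. *ND-SGDH* averaged 183 ± 12.1 FPKM in knockdown and 176 ± 20.7 FPKM in control larvae (SD, n = 3 each), a level more than 10 times that of *Atg12*, and its part in the *Atg12* values was not tested.

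The partners of *Atg12* had smaller fold changes and no call. *Atg5*, its conjugation target, had 19.2, 17.1 and 17.3 FPKM in knockdown libraries 1, 2 and 3 and 15.1, 18.8 and 12.5 FPKM in control libraries 2, 3 and 4, with control library 3 above the lower knockdown libraries. *Atg16*, the third part of the ligase, had 14.2, 13.9 and 11.7 FPKM in the knockdown and 11.0, 10.4 and 10.6 FPKM in the control. These groups did not overlap, but the log2 fold change of *Atg16* of 0.31 had an adjusted p of 0.166 from limma. The level of *Atg12* was then set against that of its partners within each library, which frees the comparison from the scaling of the libraries; these ratios were chosen after the values had been seen. The ratio of *Atg12* to *Atg5* was 0.730, 0.733 and 0.618 in the knockdown and 0.513, 0.449 and 0.530 in the control (0.694 ± 0.0655 and 0.497 ± 0.0429, SD, n = 3 each, two-sided exact permutation p = 0.1). Its ratio to *Atg16* was 0.934 ± 0.0455 in the knockdown and 0.714 ± 0.0912 in the control (SD, n = 3 each, exact permutation p = 0.1). Both ratios were higher in each knockdown library than in any control library, which is as low a p as the design allows.

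Atg8 is the protein that is attached to the lipid of the growing membrane. *Atg8a* (X, 10764878 to 10768338) was the most abundant member, at 629.6, 600.1 and 663 FPKM in knockdown libraries 1, 2 and 3 and 570.5, 576 and 567 FPKM in control libraries 2, 3 and 4. It was also the member with the smallest spread between replicates. The groups did not overlap, yet the difference was small, with means of 631 ± 31.5 and 571 ± 4.69 FPKM (SD, n = 3 each), a log2 fold change of 0.14 and an interval of -0.13 to 0.41 (adjusted p = 0.475 from limma). Its sign turned under median-of-ratios scaling, to -0.04. The paralogue *Atg8b* (3R, 17724410 to 17725063), known for its expression in the male germline, was listed at 0 FPKM in all knockdown libraries and at 0.06, 0.06 and 0.35 FPKM in the control, under the filter, and no fold change was computed. *Atg4a* and *Atg4b* encode the proteases that process Atg8. *Atg4b* had 9.89, 8.80 and 7.77 FPKM in the knockdown and 6.46, 7.19 and 5.72 FPKM in the control, without overlap (log2 fold change 0.44, interval 0.11 to 0.78, adjusted p = 0.112 from limma). *Atg4a* overlapped between groups, with a log2 fold change of 0.16. *Atg3*, the E2-like enzyme that hands Atg8 to the lipid, had 48.1, 47.1 and 40.05 FPKM in the knockdown and 36.0, 36.8 and 30.2 FPKM in the control, again without overlap (log2 fold change 0.39, adjusted p = 0.121 from limma). *Atg10*, the E2-like enzyme for Atg12, was low in both groups, with means of 2.77 ± 0.199 and 2.50 ± 0.569 FPKM in knockdown and control larvae (SD, n = 3 each). *Atg7*, the E1-like enzyme on which both conjugations depend, varied most between replicates and is taken up with the differences between libraries.

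*ref(2)P*, the fly homologue of p62, binds ubiquitinated cargo and Atg8a and is itself degraded by autophagy. It lies on 2L from 19542468 to 19545548 and had 198, 229 and 195 FPKM in knockdown libraries 1, 2 and 3, against 162, 128 and 136 FPKM in control libraries 2, 3 and 4. All knockdown libraries lay above all control libraries, with means of 207 ± 18.5 and 142 ± 18.0 FPKM (SD, n = 3 each), or 146% of the control. The log2 fold change of 0.55 (standard error 0.14, interval 0.22 to 0.87) had an adjusted p of 0.0607 from limma and was not called. It was called with estimated sample weights (adjusted p = 0.0486 from limma) and in the TPM values (0.0191). Under median-of-ratios scaling the log2 fold change was 0.37 with an adjusted p of 0.246 from limma, and with one library left out the adjusted p lay between 0.0848 and 0.225. Relative to *Atg8a* in the same library, *ref(2)P* stood at 0.330 ± 0.0453 in the knockdown and 0.249 ± 0.0322 in the control (SD, n = 3 each, exact permutation p = 0.1, ratio chosen after the values had been seen). The overlapping *CG10337* on the opposite strand had far lower values, 11.3, 9.06 and 7.54 FPKM in the knockdown and 8.20, 12.5 and 7.65 FPKM in the control.

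**Figure D3:**
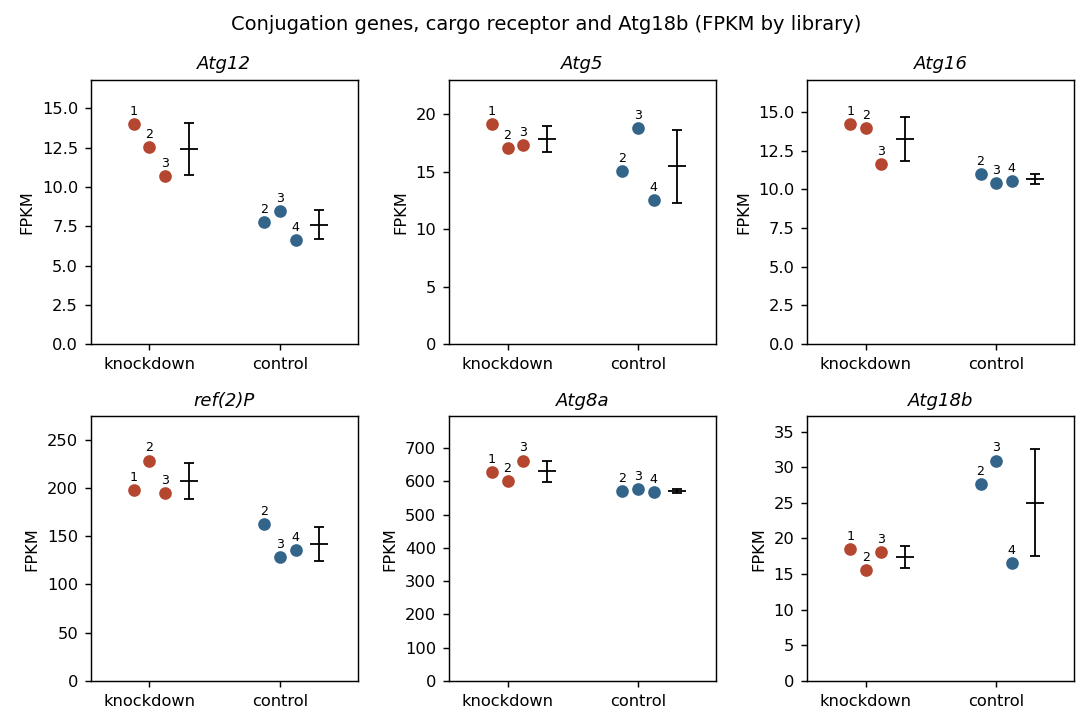
FPKM (y axis) of *Atg12*, *Atg5*, *Atg16*, *ref(2)P*, *Atg8a* and *Atg18b* in each library, knockdown left and control right, with the replicate number above each point and the mean ± SD (n = 3) beside it. The groups are apart for *Atg12* (12.4 against 7.61), *Atg16*, *ref(2)P* (207 against 142) and *Atg8a*, and overlap for *Atg5* and *Atg18b*.

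None of the genes that start the autophagosome was called, against 6.71% of all genes tested. In the Atg1 kinase complex, *Atg1* itself had 14.9, 10.4 and 15.1 FPKM in knockdown libraries 1, 2 and 3 and 12.0, 18.3 and 11.8 FPKM in control libraries 2, 3 and 4. The groups overlapped widely (log2 fold change -0.05, interval -0.55 to 0.45, adjusted p = 0.909 from limma), and the sign turned in the TPM values and with sample weights. Its regulatory subunit *Atg13* gave 17.2, 12.1 and 15.5 FPKM in the knockdown and 12.7, 18.5 and 12.4 FPKM in the control. The scaffold *Atg17* and *Atg101*, a partner of Atg13, did not overlap between groups. For *Atg101* the values were 10.4, 9.98 and 9.88 FPKM in the knockdown and 8.28, 8.60 and 6.92 FPKM in the control (log2 fold change 0.35, adjusted p = 0.139 from limma).

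All 4 measured members of the Vps34 lipid kinase complexes, which make the phosphoinositide PI3P on the membrane, had log2 fold changes between 0.20 and 0.32. The median of all genes tested was 0.16, and 74.2% of them lay above 0. None of the 4 was called, against 6.71% of all genes. *Atg6*, the fly Beclin 1, had 12.5, 10.1 and 9.85 FPKM in the knockdown and 10.1, 9.73 and 7.86 FPKM in the control (log2 fold change 0.23, adjusted p = 0.388 from limma). *Uvrag* (2L, 13286777 to 13289556), the subunit of the endosomal form of the complex, had 7.46, 6.21 and 6.08 FPKM in the knockdown and 5.79, 6.48 and 4.71 FPKM in the control. For both genes the lowest knockdown library lay below the highest control library. *Atg14*, the subunit of the autophagic form, had no overlap (log2 fold change 0.32, adjusted p = 0.191 from limma). The catalytic subunit *Pi3K59F* (Vps34) is no member by name, and had 5.87, 5.95 and 4.54 FPKM in the knockdown and 5.04, 3.92 and 3.24 FPKM in the control (log2 fold change 0.43, adjusted p = 0.218 from limma).

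*Atg9*, the transmembrane scramblase that seeds the membrane, had 24.5, 21.0 and 18.6 FPKM in knockdown libraries 1, 2 and 3 and 21.4, 18.3 and 13.3 FPKM in control libraries 2, 3 and 4, with overlap (log2 fold change 0.29, adjusted p = 0.376 from limma). *Atg18a* and *Atg18b* encode PI3P-binding propellers. *Atg18b* (2L, 21212322 to 21220572) had the second lowest fold change of the members, at 18.5, 15.6 and 18.1 FPKM in the knockdown and 27.6, 30.9 and 16.5 FPKM in the control. Control libraries 2 and 3 lay above all knockdown libraries, while control library 4 lay among them (log2 fold change -0.47, interval -1.0 to 0.05, adjusted p = 0.240 from limma). The value rested on single control libraries. Without control library 4 it was called as lower, with a log2 fold change of -0.75 and an adjusted p of 0.0383 from limma, whereas without control library 3 the log2 fold change was -0.30 with an adjusted p of 0.410 from limma. *Atg18a* had a log2 fold change of 0.22, and the ratio of *Atg18b* to *Atg18a* was 0.497 ± 0.0502 in the knockdown and 0.814 ± 0.159 in the control (SD, n = 3 each, exact permutation p = 0.1, ratio chosen after the values had been seen). This ratio was lower in every knockdown library than in every control library.

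Among the genes for tethering and fusion at early and late endosomes and lysosomes, all 10 members had log2 fold changes above 0, as had 74.2% of all genes tested. Their median was 0.26 (range 0.01 to 0.54), against 0.16 for all genes. In 5 of the 10 every knockdown library lay above every control library, against 28.8% of all genes, and none was called, against 6.71%. *Vps33B* (3R, 25473490 to 25475756), an SM protein that pairs with Vps16B in mammals, had the highest, with 9.07, 8.59 and 7.47 FPKM in knockdown libraries 1, 2 and 3 and 5.94, 6.33 and 4.95 FPKM in control libraries 2, 3 and 4. The means were 8.38 ± 0.821 and 5.74 ± 0.711 FPKM (SD, n = 3 each), and the log2 fold change of 0.54 had an adjusted p of 0.0683 from limma. Its ratio to *Vps16B* overlapped between the groups (exact permutation p = 0.2). The eye-colour genes *dor*, *car* and *lt* encode the HOPS subunits Vps18, Vps33A and Vps41. *dor* (X, 1665052 to 1668451) had 8.08, 7.25 and 7.07 FPKM in the knockdown and 6.42, 6.66 and 5.29 FPKM in the control (log2 fold change 0.29, adjusted p = 0.240 from limma). *lt* (2L, 22924795 to 22943135) had 20.2, 19.2 and 18.2 FPKM in the knockdown and 16.8, 16.2 and 15.1 FPKM in the control (log2 fold change 0.26, adjusted p = 0.187 from limma). Neither gene overlapped between groups, whereas *car* did. *dor* shares exon sequence with *CG3740* on the opposite strand, which had 17.6, 19.6 and 14.8 FPKM in the knockdown and 11.8, 11.2 and 9.38 FPKM in the control, also without overlap. *CG3740* was itself called as higher (adjusted p = 0.0375 from limma), and its part in the *dor* values was not tested. *car* (X, 19566019 to 19569401) had 5.69, 5.12 and 4.77 FPKM in the knockdown and 5.24, 4.51 and 3.79 FPKM in the control (log2 fold change 0.21, adjusted p = 0.450 from limma). *Vps11*, a core subunit of HOPS, and *Vps45*, an SM protein of early endosomes, also had no overlap, with log2 fold changes of 0.36 and 0.33 and adjusted p-values of 0.108 and 0.135 from limma. *Vps16A*, the remaining core subunit, stood nearest to 0 at 0.01.

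The ESCRT complexes, which sort ubiquitinated membrane proteins into the late endosome and seal membranes, gave 8 of 9 members with a log2 fold change above 0, against 74.2% of all genes. The median was 0.27, against 0.16 for all genes, and none was called, against 6.71%. The ATPase *Vps4* and the ESCRT-II subunit *Vps25* were without overlap between groups, and *Vps25* had a log2 fold change of 0.32 with an adjusted p of 0.164 from limma. The exception was *Vps24*, an ESCRT-III subunit, with 50.1, 44.4 and 42.5 FPKM in the knockdown and 47.3, 52.6 and 42.3 FPKM in the control (log2 fold change -0.05, adjusted p = 0.836 from limma). The 3 retromer genes, which return receptors from endosomes, lay between 0.05 and 0.15 on the log2 scale, below the median of all genes. The 4 genes of the GARP and EARP tethers, which receive vesicles from endosomes, lay between 0.05 and 0.25. *Vps13* and *Vps13B* encode lipid transfer proteins of membrane contacts. *Vps13B* had 4.10, 4.51 and 3.67 FPKM in the knockdown and 3.48, 2.89 and 2.79 FPKM in the control, without overlap (log2 fold change 0.41, adjusted p = 0.148 from limma). *Vps13* had 15.7, 15.9 and 15.2 FPKM in the knockdown and 18.1, 16.3 and 14.3 FPKM in the control (log2 fold change -0.05, adjusted p = 0.816 from limma). The interval of *Vps13B* was 0.05 to 0.77, and the difference between both genes was not tested.

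The structural and digestive genes of the lysosome were among the most abundant members, and their levels overlapped between the groups. *Lamp1* (2L, 21573389 to 21577103), a glycoprotein of the lysosomal membrane, had 405, 379.9 and 419 FPKM in knockdown libraries 1, 2 and 3 and 383, 398 and 387 FPKM in control libraries 2, 3 and 4. Its interval of -0.22 to 0.31 was one of the narrower ones (log2 fold change 0.04, adjusted p = 0.844 from limma). The aspartic protease gene *cathD* had 425, 306 and 308 FPKM in the knockdown and 468, 484 and 278 FPKM in the control, with control library 4 lowest of all (log2 fold change -0.22, interval -0.78 to 0.34, adjusted p = 0.603 from limma). The cathepsin L gene *Cp1* had 380.1, 298 and 305 FPKM in the knockdown and 371, 364 and 243 FPKM in the control (log2 fold change 0.02, adjusted p = 0.951 from limma). In both protease genes knockdown library 1 was the highest of its group and control library 4 the lowest of the 6. *Mitf*, the fly homologue of TFEB and the transcription factor of lysosomal and autophagy genes, lies on chromosome 4 from 1198852 to 1224467. It had 26.8, 26.3 and 23.9 FPKM in the knockdown and 21.2, 21.6 and 20.5 FPKM in the control, or averages of 25.7 ± 1.55 and 21.1 ± 0.559 FPKM (SD, n = 3 each). The groups did not overlap, the log2 fold change was 0.28 (interval 0.03 to 0.53), and the adjusted p of 0.158 from limma did not reach the threshold.

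Other genes of the pathway were taken from lists of autophagosome fusion, nutrient and TOR signalling, selective autophagy, lysosomal enzymes and transporters, and further ESCRT and complex subunits. Of these 61 genes, 2 were called as higher and 2 as lower, or 6.56%, which is close to the 6.71% of all genes, and their median log2 fold change was 0.11. No call fell on the 9 fusion genes, the 12 genes of TOR and nutrient signalling or the 8 further ESCRT genes. Of the 6 genes of selective autophagy, *key* was called as higher. *key* encodes the regulatory subunit of the IκB kinase of the Imd immune pathway, which binds Atg8a, and thus does more than its list's name says. It had 46.2, 60.4 and 41.9 FPKM in knockdown libraries 1, 2 and 3 and 32.6, 29.3 and 22.2 FPKM in control libraries 2, 3 and 4 (log2 fold change 0.82, standard error 0.19, adjusted p = 0.0445 from limma), with no overlap. The call was lost when any single library was left out (adjusted p of 0.0664 to 0.137 from limma) and under median-of-ratios scaling (0.107).

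Of 22 genes of lysosomal enzymes and transporters, *Gba1b* was called as higher and *Gba1a* and *Hexo1* as lower. These 3 are 13.6% of the list, against 6.71% of all genes, and the other 19 did not pass the test. The median log2 fold change of the list was -0.10, against 0.16 for all genes. *Gba1a* and *Gba1b* encode the 2 fly glucocerebrosidases. *Gba1a* fell to 26.6, 24.3 and 23.6 FPKM in knockdown libraries 1, 2 and 3, against 62.6, 34.4 and 53.8 FPKM in control libraries 2, 3 and 4 (log2 fold change -0.97, standard error 0.21, adjusted p = 0.0369 from limma). *Gba1b* rose to 10.03, 8.85 and 8.10 FPKM in the knockdown, against 6.39, 5.83 and 5.11 FPKM in the control (log2 fold change 0.63, standard error 0.14, adjusted p = 0.0401 from limma). The paralogues thus moved in opposite directions. The ratio of *Gba1b* to *Gba1a*, chosen after the values had been seen, was 0.361 ± 0.0176 in the knockdown and 0.122 ± 0.0411 in the control (SD, n = 3 each), or 2.96-fold higher. Each gene alone was already without overlap, in opposite directions. The ratio therefore had to separate the groups, and it adds no support to the single values. Reads shared between paralogues may be assigned to either, and the calls of *Gba1a* and *Gba1b* were lost under median-of-ratios scaling (adjusted p = 0.0579 and 0.0580 from limma). With one library left out, *Gba1a* kept its call only without control library 3 (adjusted p = 0.00223, otherwise 0.0884 to 0.114 from limma), and *Gba1b* kept it in no case (0.0689 to 0.150). *Hexo1*, a beta-hexosaminidase, fell to 45.1, 36.0 and 38.5 FPKM in the knockdown, against 71.4, 66.9 and 61.9 FPKM in the control (log2 fold change -0.75, standard error 0.13, adjusted p = 0.0178 from limma). This call was kept under median-of-ratios scaling and was lost without knockdown library 2, knockdown library 3 or control library 2 (adjusted p from limma of 0.0773, 0.0599 and 0.0735). The alpha-mannosidase gene *LManV* had 352, 295 and 320.2 FPKM in the knockdown and 627, 382 and 516 FPKM in the control, without overlap and without a call (log2 fold change -0.63, adjusted p = 0.0915 from limma).

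**Figure D4:**
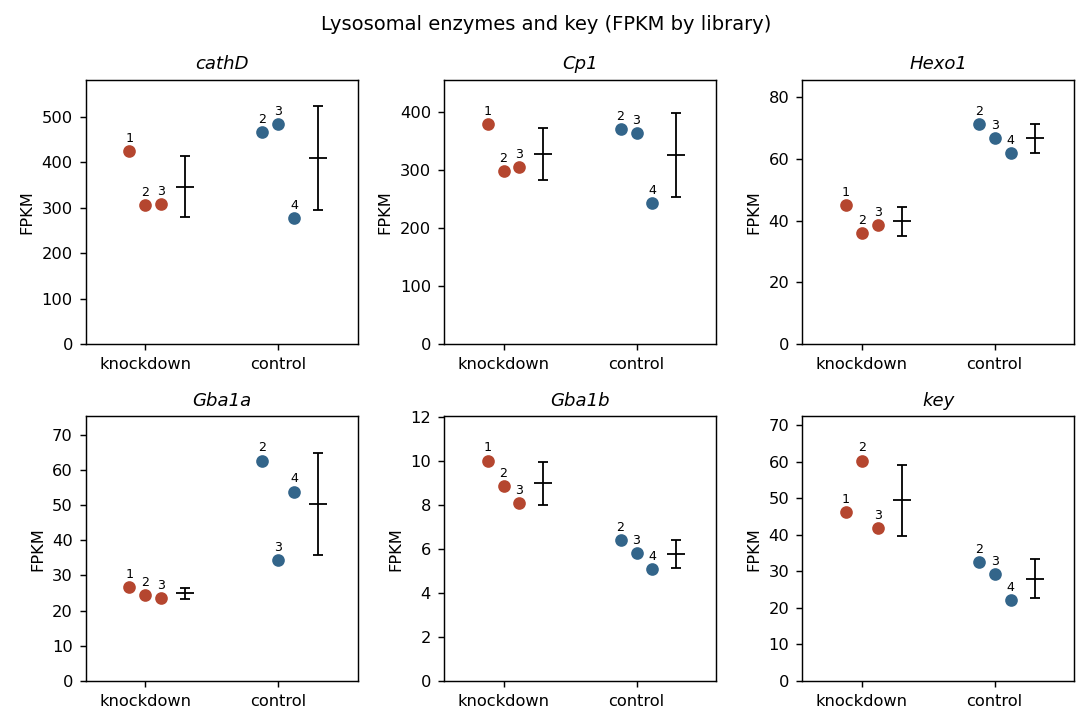
FPKM (y axis) of *cathD*, *Cp1*, *Hexo1*, *Gba1a*, *Gba1b* and *key* in each library, knockdown left and control right, with the replicate number above each point and the mean ± SD (n = 3) beside it. *Hexo1* and *Gba1a* are lower and *Gba1b* and *key* higher in all knockdown libraries, whereas the 2 protease genes *cathD* and *Cp1* overlap.

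The libraries differed from each other in ways that touch most members. Relative to each gene's mean, the median member stood at 0.24, 0.09 and 0.00 on the log2 scale in knockdown libraries 1, 2 and 3 and at -0.06, -0.00 and -0.32 in control libraries 2, 3 and 4. Knockdown library 1 was the highest of the 6 libraries for 37 of the 54 members and for 31.7% of all genes tested. Control library 4 was the lowest for 43 members and for 49.8% of all genes. Control library 4 also had the lowest median-of-ratios factor, 0.854, and without it the members' median log2 fold change was 0.11 and that of all genes 0.09. With the estimated sample weights, which gave control library 2 a weight of 4.685 and control library 4 one of 0.341, 7 members were called as higher and 1 as lower, among 17.7% of all genes.

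Replicates of most members lay close together. The median standard deviation within groups was 0.17 on the log2 scale for the members and 0.20 for all genes tested. *Atg7* was the only member above 0.5, a value that 721 of all genes exceeded. It had 11.7, 3.58 and 8.05 FPKM in knockdown libraries 1, 2 and 3 and 9.10, 30.2 and 9.96 FPKM in control libraries 2, 3 and 4. Knockdown library 2 was the lowest and control library 3 the highest, 8.45 times above it, while the other 4 libraries lay between 8.05 and 11.7 FPKM. Its log2 fold change of -0.996, the lowest of the members, thus had an interval of -2.69 to 0.70 (adjusted p = 0.407 from limma), and with both of these libraries left out, an alternative added after the data had been seen, it was 0.03.

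The same 2 libraries were the extremes for genes of the ecdysone response, the hormone response that triggers moulting and metamorphosis. Knockdown library 2 was the lowest and control library 3 the highest for 7 of 10 genes of the ecdysone response list, for 3 of the 53 other members and for 7.71% of all genes tested. These 3 members were *Atg1*, *Atg13* and *Atg18b*. *Eip78C*, an ecdysone-induced nuclear receptor, had 55.2, 2.36 and 44.5 FPKM in knockdown libraries 1, 2 and 3 and 4.78, 90.0 and 25.4 FPKM in control libraries 2, 3 and 4. *Hr3*, another such receptor, had 4.07, 0.420 and 2.42 FPKM in the knockdown and 0.560, 9.56 and 2.65 FPKM in the control. Control library 2 was low for these receptors and not for *Atg7*. The other 3 genes of the list, *usp*, *EcR* and *ftz-f1*, had other extremes, and *ftz-f1*, a competence factor of the prepupal response, ran the opposite way. It had 5.76, 8.12 and 7.53 FPKM in the knockdown and 5.27, 3.07 and 5.11 FPKM in the control, highest in knockdown library 2 and lowest in control library 3. None of the 10 ecdysone response genes was called, and their summed FPKM was 152.6 to 344.1 in the knockdown and 239.2 to 448.7 in the control. The part of these library differences in the values of *Atg7*, *Atg1*, *Atg13* and *Atg18b* was not tested.

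**Figure D5:**
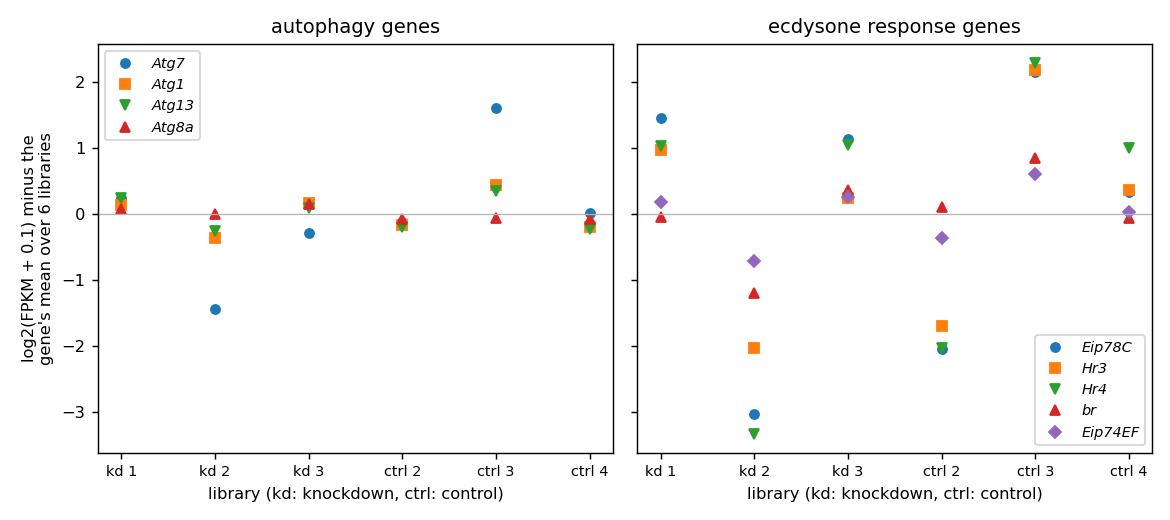
Log2(FPKM + 0.1) minus the gene's mean over the 6 libraries (y axis) in each library (x axis, kd for knockdown and ctrl for control) for 4 autophagy genes (left) and 5 of the 7 ecdysone response genes that share the extremes of *Atg7* (right). Knockdown library 2 is lowest and control library 3 highest for *Atg7*, *Atg1*, *Atg13* and the 5 genes on the right, which were chosen for it, while *Atg8a* stays within a narrow band.

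Tissue markers were followed because whole larvae were sequenced. The summed FPKM of 6 midgut genes was 12620 to 15600 in knockdown and 17450 to 27990 in control libraries, without overlap. *Jon65Aiv*, the most abundant of them (means of 8862 and 13280 FPKM), overlapped between groups when taken singly, as did *alphaTry* and *Mal-A1*. Of the 6, 2 genes, *betaTry* and *Amy-p*, were called as lower, against 1.65% of all genes tested. The 6 neuronal genes summed to 46.5 to 54.5 FPKM in the knockdown and 39.03 to 42.53 FPKM in the control, also without overlap, and none was called. Of these, *elav* and *para* overlapped between groups. Under median-of-ratios scaling the log2 fold changes of the 6 genes lay between -0.11 and 0.25 (adjusted p of 0.286 to 0.803 from limma). Taken singly, 28.8% of all genes tested were higher in the knockdown without overlap, and 4.66% were lower. The 6 fat body genes summed to 21250 to 26080 FPKM in the knockdown and 20900 to 22130 FPKM in the control, with overlap. Only *Lsp1beta* was called, as higher (log2 fold change 0.99), and the list was mixed. *Lsp1alpha* (1.21) and *Fbp2* (1.15) also lay above 0, whereas *Lsp1gamma* (-0.52), *Lsp2* (-0.12) and *Fbp1* (-2.67) lay below. The summed FPKM of the salivary gland, muscle and haemocyte lists overlapped between groups, and these lists held no call. Singly, *Sgs1*, *Sgs7* and *Sgs8* of the salivary gland were lower without overlap, at 16.5%, 28.9% and 23.2% of the control mean. Their adjusted p-values from limma were 0.184, 0.173 and 0.179, and *Sgs3*, *Sgs4* and *Sgs5* overlapped. The haemocyte genes *Pxn* and *NimC1* were higher without overlap, whereas *Hml*, *eater*, *He* and *srp* overlapped, as did each muscle gene. No marker of these lists was at 0 in all libraries, and the part of tissue shares in the values of *Atg12*, *ref(2)P*, *Gba1a*, *Gba1b* and *Hexo1* was not tested.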

How the data were processed

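RNA of whole female L3b larvae was sequenced as paired reads of 100 bp. The authors used SOAPnuke to clean the reads, HISAT2 to map them and RSEM to quantify transcripts. Their deposited table gives FPKM per gene and library, rounded to 2 decimals, and no read counts. The submitters' processing notes also list StringTie, Cufflinks, GATK and DESeq2. Versions, the genome build and the strand setting are not given in the sources used here. The table also holds GO terms, which were used for counts only, and 0 columns of other samples. FPKM values are relative to all mapped reads of a library, so genes at very high levels can shift all others, and depth and counting error are unknown.

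Log2(FPKM + 0.1) of the 9978 genes with a mean of at least 0.5 FPKM was fitted with limma version 3.58.1 (R version 4.3.3), with genotype as the only term and a trended and robust variance. Adjustment of p-values followed Benjamini and Hochberg over all genes tested. Intervals are 95%. Permutation tests of single values were exact and two-sided. The fit was tested on simulated data with planted changes larger than the fold change of any member. How well it finds changes of the members' size was not tested. Members and lists were chosen with earlier results of these data known, and no list was tested as a set. Every library's value is given for members that were called, had 1 of the 5 highest or 5 lowest fold changes, or belong to a fixed set of 14 (*Atg1*, *Atg6*, *Atg8a*, *Atg8b*, *Atg9*, *ref(2)P*, *Lamp1*, *Mitf*, *cathD*, *Cp1*, *car*, *dor*, *lt* and *Uvrag*). Of the other pathway genes, those called and the 3 highest and 3 lowest are named. *Atg3*, *Atg5*, *Atg13*, *Atg16*, *Atg101*, *Eip78C*, *Hr3* and *ftz-f1* were given by library after their values had been seen. Of 165 listed symbols, 163 matched, 12 of them through RefSeq.

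Alternatives were pseudocounts of 1 and 0.01, no filter, a mean of at least 5 FPKM, median-of-ratios and quantile scaling, no trend or robustness, sample weights, a block for the replicate number, both thresholds, each library left out, and, added after the data had been seen, TPM values and the removal of 2 libraries together. Positions come from BDGP6.54 (Ensembl release 115). No sequence was analysed here. Tables and plots were made in Python version 3.11.15 with pandas version 2.3.3, NumPy version 2.4.6, SciPy version 1.17.1 and Matplotlib version 3.10.9.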

Additional observations from a re-analysis of the deposited data

How the results depend on the processing

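The single call among the autophagy and lysosome genes, *Atg12*, kept its direction under all 17 alternatives and its call under pseudocounts of 1 and 0.01, a mean of at least 5 FPKM, median-of-ratios scaling, quantile normalization, the variance without trend, sample weights and TPM values. The number of members called as higher was 0 without a filter on low values, 0 with the replicate block, 0 with both thresholds, 7 with sample weights and 13 in TPM values, and between 0 and 1 with one library left out. The number called as lower was 1 with sample weights (*Atg18b*) and 2 with the block (*Atg18b* and *Atg7*), and 0 to 1 with one library left out. Over all genes, 670 calls became 364 without a filter, 315 with quantile normalization, 324 with median-of-ratios scaling, 1764 with sample weights, 1929 in TPM values, 290 with both thresholds and 265 to 457 with one library left out. The members' median of 0.22 was 0.0446 with median-of-ratios scaling, 0.0627 with the block (0.001 above that of all genes), 0.0712 with quantile normalization, 0.34 in TPM values, and between 0.11 and 0.29 with one library left out. Of the 54 members, 4 turned sign in TPM values, 10 with quantile normalization and 13 with median-of-ratios scaling, all without a call. Among the genes named by rule, signs turned for *Atg8a* (-0.0373), *Lamp1* (-0.14) and *Cp1* (-0.15) with median-of-ratios scaling, for *Cp1* also with sample weights (-0.15) and the block (-0.28), for *Atg9* with the block (-0.0019), for *car* with quantile normalization (-0.002), for *Atg1* with sample weights (0.065), and for *Vps24*, *Vps13* and *Atg1* in TPM values (0.0669, 0.0635 and 0.0683). Without knockdown library 2 and control library 3 they turned for *cathD* (0.0058), *Vps24* (0.0457), *Atg1* (0.33) and *Atg7* (0.0283). With one library left out, *Cp1* ranged between -0.17 and 0.13, *Vps24* between -0.13 and 0.0264, *Vps13* between -0.14 and 0.0272 and *Atg1* between -0.16 and 0.16. None of these genes was called in the FPKM values as deposited, and the cause was not tested. Replicate numbers 2 and 3 are shared by the groups and are not stated to pair libraries. Across genes, which are not independent replicates, deviations of same-numbered libraries correlated with r of 0.40 and 0.14. For knockdown 2 and 3 no other control library had a higher r, the next being control 4 with 0.38 and 0.06. The highest r, 0.63, was that of knockdown 1 and control 3. Such correlations cannot settle whether libraries were paired, and the main fit took no pairs because none is stated. The replicate block left 640 genes called. Depth is unknown, and 3 libraries against 3 give the precision.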

Other observations

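Further genes that carry autophagy or lysosome terms in the table but belong to none of the lists were counted after the data had been seen. Of 135 tested genes with an autophagy term, 6 were called as higher and 0 as lower (4.44%, against 6.71% of all genes), with a median log2 fold change of 0.15. *Rab21*, a small GTPase of early endosomes and of autophagosome maturation, rose to 12.3, 12.3 and 9.84 FPKM in knockdown libraries 1, 2 and 3, against 6.45, 5.52 and 5.55 FPKM in control libraries 2, 3 and 4 (log2 fold change 0.96, standard error 0.14, adjusted p = 0.00909 from limma). Its adjusted p from limma stayed under the threshold in every alternative fit other than those added later, at up to 0.0384, and in the TPM values. The other 5 were *BI-1*, *nero*, *Dcp-1*, *Nprl2* and *p53*, of which *Dcp-1* encodes an effector caspase and *Nprl2* a subunit of the GATOR1 complex that restrains TOR.

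Of 75 tested genes with a lysosome term, 5 were called as higher and 1 as lower, or 8.0%, which is near the share of all genes. Of all genes tested, 6.71% were called, 5.06% as higher and 1.65% as lower. The median log2 fold change was 0.20, against 0.16 for all genes. *CG6337*, annotated as a cysteine peptidase of the cathepsin family, rose to 17.1, 18.8 and 15.9 FPKM in the knockdown, against 4.95, 3.64 and 3.66 FPKM in the control (log2 fold change 2.07, standard error 0.16, adjusted p = 0.00147 from limma). *CG4847*, another cathepsin-like gene, fell to 41.0, 44.8 and 37.0 FPKM in the knockdown, against 106, 85.4 and 106 FPKM in the control (log2 fold change -1.27, standard error 0.14, adjusted p = 0.00342 from limma). Neither gene overlapped between groups. Both kept an adjusted p under the threshold in every alternative fit other than those added later, and in the TPM values. The other calls were *g*, a subunit of the AP-3 adaptor that sorts cargo to lysosomes, *Nprl2*, *CG15117* and *CG5613*.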
